A study of Homo sapiens with 16 samples.

Results

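The DEAD- and DEAH-box helicase genes measured in H1299 cells with and without YEATS2 are described here. The set holds every gene of the deposited RNA-seq table whose symbol begins with DDX or DHX and a digit, apart from DDX58 and DHX58, and it has 53 members among the 12676 genes listed. H1299 is an established human non-small cell lung cancer line. Both groups of cells were infected with a pLKO lentivirus (polybrene, 8 µg/ml) and, from 48 h after infection, kept in puromycin (2 µg/ml) for 4 to 7 days according to the labels, whereas the paper's methods give a shorter selection. The control cells (shNT, 2 libraries) received a non-targeting shRNA and the YEATS2 knockdown (KD) cells (shYEATS2, 2 libraries) an shRNA against YEATS2. The labels do not say whether the 2 libraries of a group came from separate infections, so that p-values measure the spread between these libraries. Each group was a pool of selected cells of 1 line, and the KD libraries are not labelled with the shRNA used. The paper describes its duplicate RNA-seq as independent biological replicates made with 1 efficient shRNA. It reports a separate RNA-seq with another shRNA of partial KD. The comparison asks how the mRNA levels of the helicase family stood when YEATS2, the histone-acetylation reader of the ATAC acetyltransferase complex, was depleted.

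The DEAD- and DEAH-box proteins are ATP-driven enzymes that unwind short RNA duplexes or strip proteins from RNA, and they are named for the amino acids of their motif II, which binds the magnesium and ATP. DEAD-box proteins (DDX) open duplexes locally, whereas DEAH-box proteins (DHX) move along a strand from its 3′ side, often after being switched on by a partner with a G-patch domain. Between them they serve nearly every step in the life of an RNA: they assemble ribosomal subunits in the nucleolus, drive the remodelling of the spliceosome, load mRNA for export through the nuclear pore and control translation and decay in the cytoplasm.

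Motif II itself is the sequence that ties the family together and, through the family names, lies behind the symbols by which the members were chosen. A search was made in frame through the coding sequences of the 49 protein-coding members that the annotation holds, for motif II codons with a motif I codon pattern before them and a motif III pattern after them. The DEAD form (codon pattern GANGANGCNGAN) was found in 25 members and the DEAH form (GANGANGCNCAN) in 8. Another 6 members carried GANGANGTNCAN, and each of 3 other forms was found in 2 members, namely GANGANTGNGAN in DDX39A and DDX39B, GANGANGTNGAN in DDX21 and DDX50, and GANGANATNCAN in DHX9 and DHX36. No such codons with both flanking patterns were found in DDX11, DDX28, DDX26B and DHX32, which says only that these patterns are not there. The stretches below are shown because the results turn on these genes, with the motif II codons in capitals, 5′ to 3′ on the coding strand.
DDX39A: tttgtgctgGACGAGTGTGACaagatgctg
DDX39B: tttattttgGATGAATGTGATaagatgctt
DDX46: gttgttttaGATGAAGCAGACagaatgttt
DHX15: ataattcttGATGAGGCTCATgagaggaca
DDX21: gttgtcctgGATGAAGTGGACcagatgttg
DDX50: gttgtgcttGATGAAGTGGATcagatgtta
DDX60: gttatatttGATGAGGTTCATtgtcttggt
DDX60L: gttatatttGATGAGGTCCATtatcttggc
DDX39A and DDX39B, the pair with the cysteine codon TGT as the third codon of motif II, were both among the genes that fell, as described with the export helicases.

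The sequencing was deep and even. The listed genes took between 34718921 and 39417787 reads per library, of which the helicase members took 0.716 and 0.666% in the shNT and 0.667 and 0.627% in the shYEATS2 libraries. Counts of a gene are given scaled to the mean library size after the TMM method of edgeR ("scaled count"), and log2 fold changes are those of shYEATS2 over shNT. Genes are called lower or higher at a false discovery rate (FDR) under 0.01, which was obtained with the quasi-likelihood test of edgeR and adjusted after Benjamini-Hochberg over all 12676 genes. YEATS2 had scaled counts of 4482 and 4104 in the shNT and of 665 and 673 in the shYEATS2 libraries, with a log2 fold change of -2.68 (standard error (SE) 0.10, FDR 0.000583). Among the markers of H1299 and lung epithelium, KRT8, KRT18 and VIM are listed, whereas KRT19, EPCAM, NKX2-1, SFTPB, SFTPC and NAPSA are not. None of the 10 markers of blood, endothelial and fibroblast cells is listed, in a table that holds only genes with at least 101 reads in some library.

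Few helicase members changed past the threshold in YEATS2 KD cells, and the median of the family lay slightly below that of all genes. In such bulk samples, fewer cells of a kind and less RNA per cell cannot be told apart. Of the 53 members, 6 were lower (11.3%) and 1 was higher (1.89%), while 46 were not called. Among all genes tested, 12.5% were called lower and 12.9% higher, so that the share of members called lower was close to that of the whole table. The members had a median log2 fold change of -0.14 and all genes one of -0.0019, with members from -1.52 (DDX12P) to 1.17 (DDX60L). At an FDR under 0.05, 14 members (26.4%) were lower and 3 (5.66%) higher, against 23.8 and 24.4% of all genes. Both shYEATS2 libraries lay below both shNT libraries for 28 members (52.8%, against 39.8% of all genes) and above them for 11 (20.8%, against 39.7%). An absolute log2 fold change of 1 or more was found in 2 members, against 11.2% of all genes. With total counts in place of TMM the members' median was -0.02 and that of all genes 0.12, and 37 of the 53 members lay below the median of all genes with either scaling. Replicate 2 of shYEATS2 lay farther from the shNT mean than replicate 1 in 43 members (81.1%) and in 71.6% of all genes. When libraries were left out in turn, the members called lower numbered 2 without shNT replicate 1, 2 without shNT replicate 2, 10 without shYEATS2 replicate 1 and 4 without shYEATS2 replicate 2. These are 3.77, 3.77, 18.9 and 7.55% of the members, against 6.71, 7.25, 16 and 8.36% of all genes in the same fits.

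**Figure D1:**
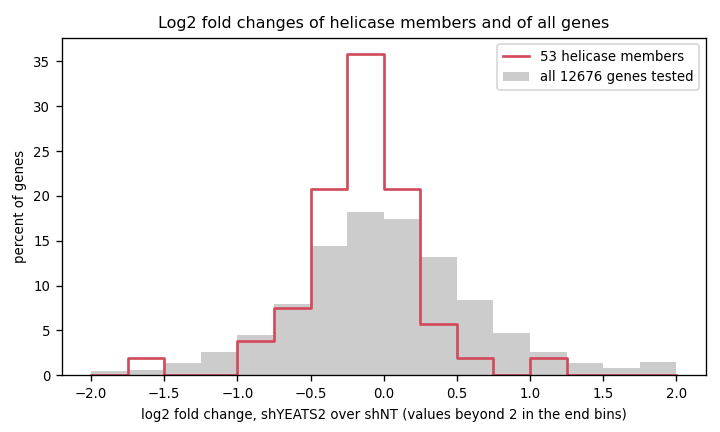
Percent of genes (y axis) in bins of the log2 fold change of shYEATS2 over shNT (x axis) for the 53 helicase members (red line) and all 12676 genes tested (grey bars). The members are gathered around a median of -0.14, and only 2 of them change by 1 or more on the log2 scale.

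**Figure D2:**
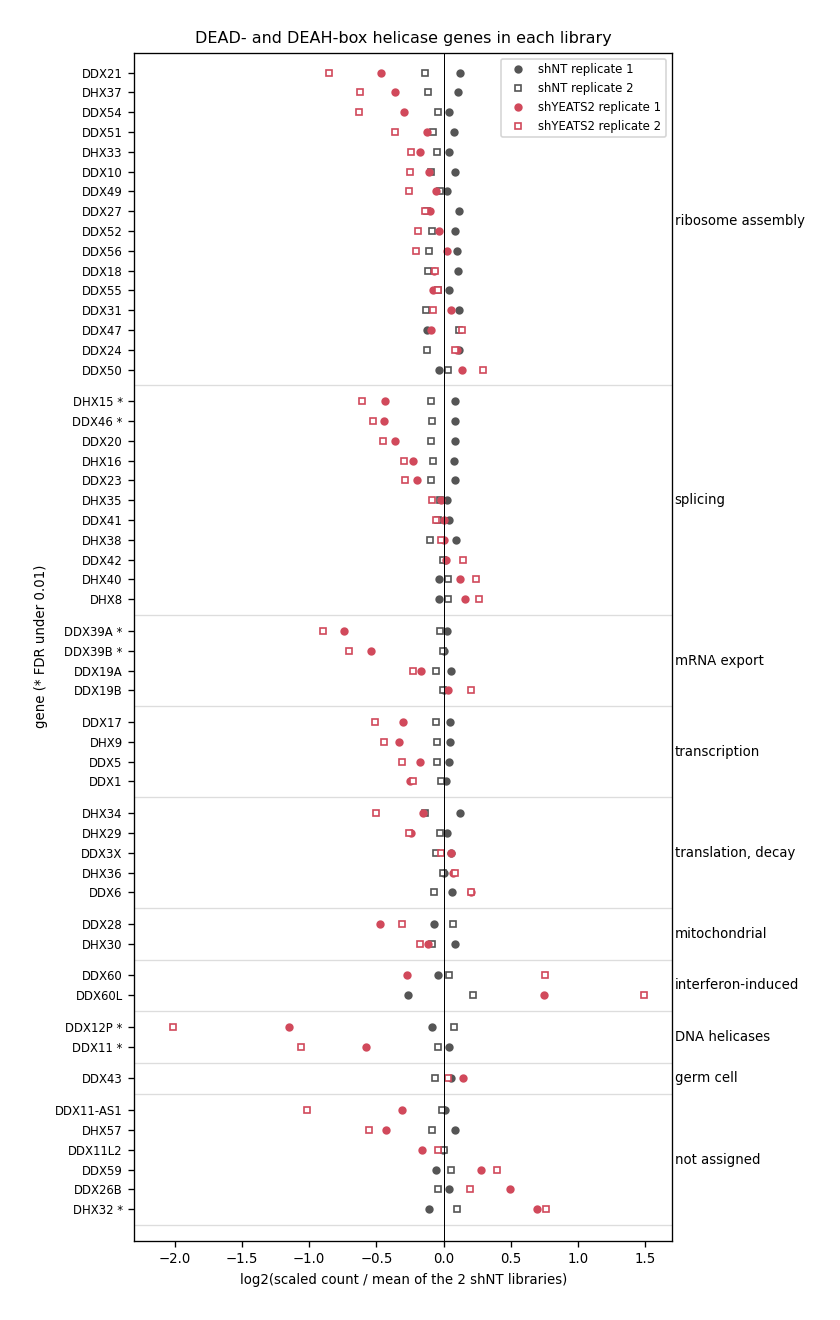
Each row is a helicase member and each point a library, placed by the log2 of its scaled count over the mean of the 2 shNT libraries (x axis); stars mark the 7 members with an FDR under 0.01, and the names on the right are the roles. The red shYEATS2 points of the export pair DDX39A and DDX39B, the transcription group and the DNA helicase relatives lie left of the grey shNT points, while DHX32 and DDX60L lie right of them.

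The member with the lowest FDR was an mRNA export helicase. DDX39A (URH49) and DDX39B (UAP56) are near-identical helicases that load the TREX complex onto spliced mRNA, and both fell in YEATS2 KD cells. DDX39A, a gene of chromosome 19 (14519610 to 14530195, minus strand, GRCh37), had scaled counts of 7522 and 7226 in the shNT and of 4411 and 3971 in the shYEATS2 libraries. Its group means of 7374 ± 209 and 4191 ± 311 (SD, n = 2) give a fold of 0.568, with a log2 fold change of -0.82 (SE 0.0986, FDR 0.00168). DDX39B, on chromosome 6 (31497996 to 31510225, minus strand), had 3375 and 3368 against 2317 and 2074, with means of 3372 ± 4.91 and 2196 ± 172 (SD, n = 2). Its fold was 0.651 and its log2 fold change -0.62 (SE 0.100, FDR 0.00388). For both genes the groups stood well apart and the spread within a group was small. DDX39A stayed past the threshold with any library left out, whereas DDX39B missed it without shNT replicate 1 (FDR 0.0155) and without shNT replicate 2 (FDR 0.0148). All 50-base words of the DDX39B transcript (100%) also occur in other annotated transcripts, which include a readthrough with the neighbouring ATP6V1G2, whereas none of those of DDX39A do.

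DDX19A and DDX19B, which release export factors from mRNA at the cytoplasmic face of the nuclear pore, were not called. DDX19A had 3111 and 2875 reads against 2666 and 2553 (scaled counts), and DDX19B had 504 and 502 against 516 and 580.0. The log2 fold changes were -0.20 (FDR 0.131) and 0.12 (FDR 0.432). Of the 50-base words of their transcripts 63.8 and 42.2% occur in each other or in a further annotated gene that overlaps both, so that the reads of these 2 genes are not fully separate. Of the 4 export helicases 2 were thus lower (50%, against 12.5% of all genes) and 0 higher (against 12.9%), with a median of -0.41.

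**Figure D3:**
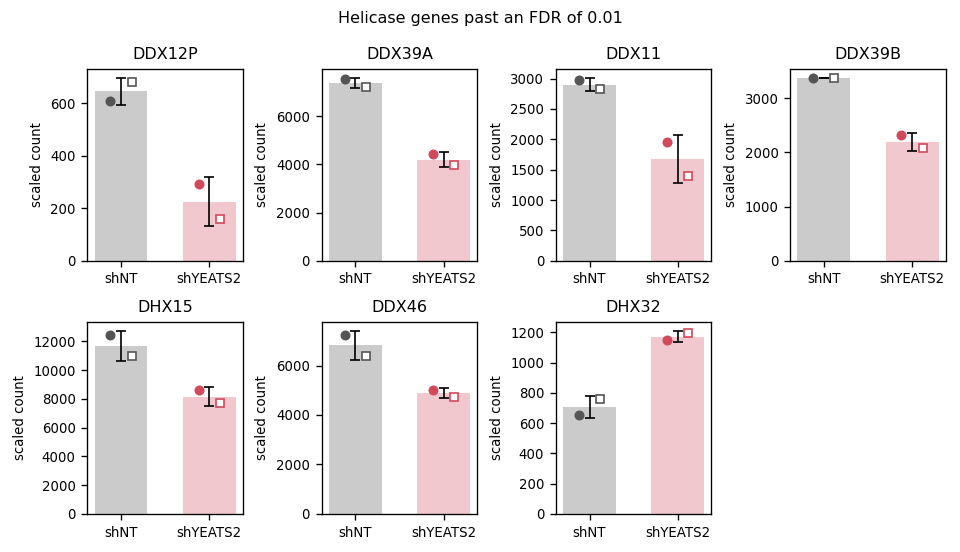
Scaled counts (y axis, from 0) of the 7 helicase members with an FDR under 0.01, with replicate 1 as filled circles and replicate 2 as open squares; bars are means and error bars the SD of 2 libraries. In each panel the shYEATS2 points lie apart from the shNT points, below them in 6 genes and above them in DHX32.

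The spliceosome helicases drive successive rearrangements of the splicing machinery, and 2 of 11 fell (18.2%, against 12.5% of all genes) while 0 rose, with a median of -0.05. DHX15, the DEAH-box enzyme that takes apart the spent spliceosome and also works in ribosome assembly, lies on chromosome 4 (24519064 to 24586177, minus strand). It had scaled counts of 12404 and 10953 in the shNT and of 8631 and 7677 in the shYEATS2 libraries, with means of 11679 ± 1026 and 8154 ± 675 (SD, n = 2). Its log2 fold change was -0.52, a fold of 0.698 (SE 0.111, FDR 0.00986). DDX46, the human counterpart of yeast Prp5 that helps the U2 snRNP onto the branch site, lies on chromosome 5 (134094461 to 134190823, plus strand). It had 7221 and 6405 against 5024 and 4747, and its means were 6813 ± 577 and 4885 ± 196 (SD, n = 2). DDX46 thus stood at a fold of 0.717, a log2 fold change of -0.48 (SE 0.102, FDR 0.00964).

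Both of these calls stood near the threshold. DHX15 passed it only without shYEATS2 replicate 1 (FDR 0.00614) among the fits with 1 library left out, where its FDR was otherwise between 0.019 and 0.0715. DDX46 passed in none of them, with log2 fold changes from -0.5625 to -0.3953. Neither gene passed with total counts in place of TMM in the quasi-likelihood test (FDR 0.0204 and 0.0216). Among 10 alternatives that kept every library, DHX15 passed in 8 and DDX46 in 9. The other 9 spliceosome helicases were not called by the quasi-likelihood test and ranged from -0.41 in DDX20 (Gemin3, of the SMN complex that assembles snRNPs) to 0.21 in DHX8, which frees spliced mRNA from the spliceosome. DDX20 was called lower by exactTest (FDR 0.00938) and not by DESeq2 (FDR 0.0222). DHX38, the PRP16 counterpart that acts before the second step of splicing, was the flattest of them at -0.01, and that value turned positive with total counts (0.11). DHX8, DHX40 and DDX42 lay above both shNT libraries in both shYEATS2 libraries (27.3% of the 11, against 39.7% of all genes). Another 5 of the 11 lay below them in both (45.5%, against 39.8% of all genes). A pseudogene of DHX40 shares 50-base words with 25.1% of its transcript.

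The member with the largest fall in the set was a pseudogene and not a coding gene. DDX11 (ChlR1) is an iron-sulphur DNA helicase that acts at replication forks and in sister chromatid cohesion, and DDX12P is a pseudogene copy of it on the same chromosome. DDX12P (chromosome 12, 9571269 to 9600825, minus strand) had scaled counts of 610.1 and 682 in the shNT and of 292 and 160.0 in the shYEATS2 libraries. Its means were 646 ± 51.1 and 226 ± 93.2 (SD, n = 2), a fold of 0.348 with a log2 fold change of -1.52 (SE 0.263, FDR 0.00474). DDX11 (chromosome 12, 31226794 to 31257733, plus strand) had 2979 and 2826 against 1949 and 1392, with means of 2903 ± 108 and 1671 ± 394 (SD, n = 2). Its fold was 0.575 and its log2 fold change -0.80 (SE 0.160, FDR 0.00784).

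The values of DDX11 and DDX12P cannot be fully separated, since 40.8 and 57.7% of the 50-base words of their transcripts occur in each other or in a further copy. In both genes replicate 2 of shYEATS2 was the lower library. Without that library the log2 fold change was -1.15 for DDX12P (FDR 0.00312) and -0.57 for DDX11 (FDR 0.00898), and without shYEATS2 replicate 1 it was -2.01 and -1.06. DDX11 missed the threshold without shNT replicate 1 (log2 fold change -0.76) or shNT replicate 2 (-0.83). It also missed it with total counts in the quasi-likelihood test (FDR 0.0116), and passed in 9 of 10 alternatives that kept every library. DDX11-AS1, a long non-coding RNA that starts just before DDX11 on the other strand, was not called (-0.63, FDR 0.0882), with 173 and 170.3 against 139 and 84.9.

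The 16 helicases of ribosome assembly act on pre-rRNA and snoRNAs in the nucleolus and early ribosomal particles, and 0 of them were called in either direction. Their log2 fold changes ran from -0.64 (DDX21) to 0.22 (DDX50) with a median of -0.11. Of the 16, 13 were below 0 (81.2%, against 50.1% of all genes). With total counts their median was 0.01, so that its sign rests on the scaling. The median of all genes was then 0.12, and that of the 16 lay below it with either scaling. DDX21, the abundant nucleolar helicase that binds snoRNAs and RNA polymerase I and II genes, had scaled counts of 21444 and 17857 in the shNT and of 14270.0 and 10901 in the shYEATS2 libraries. The groups did not overlap, but the libraries of each group also spread widely, and the log2 fold change of -0.64 (SE 0.156) had an FDR of 0.0151. Its paralog DDX50, with the same motif II form, had 2094 and 2191 against 2359 and 2626, with a log2 fold change of 0.22 (FDR 0.111). DDX31 was the flattest gene of the group (-0.01) and turned positive with total counts (0.11). By edgeR's exactTest or by DESeq2, which called 19.7 and 17.3% of all genes lower, 3 of the 16 were called lower, a share near that of all genes. These were DDX21, DHX37 (the helicase that releases the U3 snoRNA) and DDX54, which were singled out after their values were seen. DDX47, with scaled counts between 82.9 and 99.0, shares 99.7% of its 50-base words with an APOLD1 readthrough.

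The 4 helicases with roles in transcription and several nuclear steps were not called either. Both shYEATS2 libraries lay below both shNT libraries in each of them, as they did in 39.8% of all genes. Their median was -0.31, and with total counts it was -0.19. DDX5 (p68) and DDX17 (p72) are paired co-regulators of transcription and splicing. DDX5 had scaled counts of 28790 and 27045 against 24718 and 22579, and its log2 fold change was -0.24 (SE 0.0983, FDR 0.083). DDX17 had 13649 and 12695 against 10699 and 9245, with -0.40 (SE 0.109, FDR 0.0225). DHX9 (RNA helicase A), which resolves long duplexes and R-loops, had 18583 and 17424 against 14303 and 13218, with -0.39 (SE 0.0972, FDR 0.017). DDX1, which works in tRNA ligation, had the smallest change of this group at -0.24 (FDR 0.0624). DDX17 and DHX9 were called lower by exactTest and by DESeq2.

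The cytoplasmic helicases of translation and mRNA decay gave 0 calls among 5 genes and a median of 0.02. DDX3X, which helps ribosomes scan structured leaders, had scaled counts of 22833 and 21074 in the shNT and of 22782 and 21692 in the shYEATS2 libraries. The groups overlapped, and the log2 fold change was 0.02 (SE 0.0957, FDR 0.886), which moved to -0.04 without shNT replicate 2 and to -0.02 without shYEATS2 replicate 1. DHX34, a factor of nonsense-mediated decay, had the lowest value of the 5 at -0.32 (FDR 0.118). DHX36, which unwinds G-quadruplexes, had 4875 and 4857 against 5105 and 5172, and its log2 fold change was 0.08 (FDR 0.482). DDX3Y, the Y-linked copy of DDX3X on the list, is not among the genes analysed here. Of the 2 mitochondrial helicases, which serve the mitochondrial ribosome, neither was called. DDX28 had 509 and 562 against 385 and 433 (-0.39, FDR 0.0486), and DHX30 was at -0.14 (FDR 0.276). DDX43, a helicase of germ cells and of some tumours, was measured at 273 and 252 against 290 and 269 (0.09, FDR 0.641).

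DHX32 was the only member called higher. It is a DEAH-box relative whose role is less well known, on chromosome 10 (127524906 to 127585005, minus strand). Its scaled counts were 654 and 758 in the shNT and 1147 and 1197 in the shYEATS2 libraries, with means of 706 ± 73.6 and 1172 ± 35.7 (SD, n = 2). The fold was 1.66 and the log2 fold change 0.73 (SE 0.118, FDR 0.00388). Both shYEATS2 libraries exceeded both shNT libraries, and the call was lost without shNT replicate 1 (FDR 0.0266). BCCIP overlaps 10.4% of the exonic length of DHX32 on the other strand, and reads of that stretch cannot be told apart where counting does not use the strand. The other 5 members without an assigned role were not called. They ranged from -0.63 (DDX11-AS1) to 0.35 in DDX26B, which is a relative of an Integrator subunit rather than a known helicase. DDX11L2, a pseudogene of the family, was the flattest of them at -0.10, with a value of 0.02 with total counts. DHX57 (-0.49, FDR 0.0104) missed the threshold narrowly and was called lower by exactTest, DESeq2 and upper-quartile scaling.

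DDX60 and DDX60L, large helicases that interferon induces in antiviral defence, were not called by the quasi-likelihood test, and DDX60L had the highest log2 fold change of the set. DDX60L had scaled counts of 94.7 and 132 in the shNT and of 191 and 319 in the shYEATS2 libraries, which did not overlap. Its means were 114 ± 26.6 and 255 ± 90.9 (SD, n = 2), a fold of 2.25, and its log2 fold change of 1.17 (SE 0.298) had an FDR of 0.018. It was called higher by exactTest (FDR 0.000891) and DESeq2 (FDR 0.00153) and without shYEATS2 replicate 1 (FDR 0.00291), and the value was 0.75 without shYEATS2 replicate 2 (FDR 0.0641). DDX60 had 217 and 230.0 against 186 and 378, so that one shYEATS2 library lay below and the other above the controls. Its log2 fold change of 0.34 (SE 0.315, FDR 0.402) was -0.27 without shYEATS2 replicate 2.

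Other interferon-induced genes were listed beside them. Of the 19 on the list, 13 are in the table, of which 5 were higher and 0 lower (12.9% of all genes were called higher), and both shYEATS2 libraries lay above both shNT libraries in 12 (39.7% of all genes). OAS2, OASL and IFI44 reached 101 reads only in shYEATS2 replicate 2 (120, 417 and 189 reads before scaling). They are in the table through that library alone, so that their part in the counts given here was fixed by their entry. Replicate 2 of shYEATS2 lay farther from the controls in 12 of the 13 (71.6% of all genes), as it did for DDX60 and DDX60L. Without that library 2 of the 13 were called higher and 1 lower, against 7.83 and 8.36% of all genes. Without shYEATS2 replicate 1, 10 were called higher, against 15.6% of all genes. The part of replicate 2 in the values of DDX60 and DDX60L was not tested beyond these values.

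**Figure D4:**
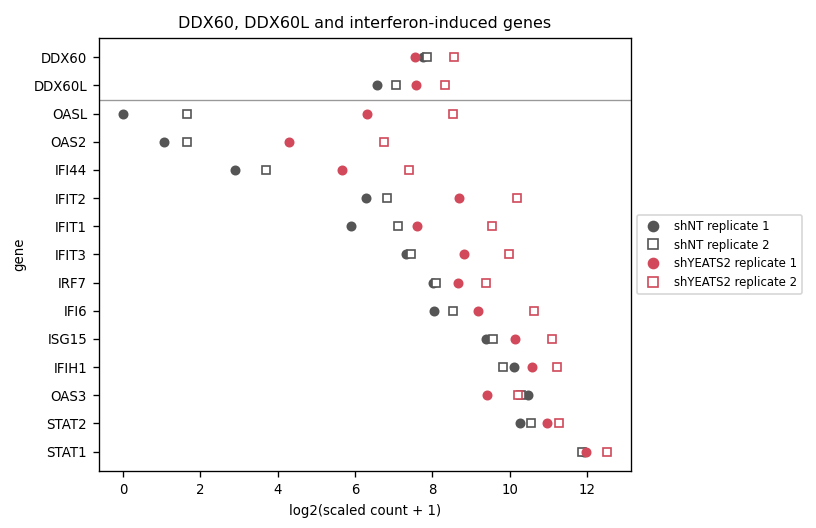
Log2 of the scaled count + 1 (x axis) in each library for DDX60, DDX60L and the 13 listed interferon-induced genes, in order of their shNT mean. The 2 shYEATS2 points lie right of both shNT points in DDX60L and 12 of the 13 genes, with replicate 2 the farthest right in each of those 12, whereas the shYEATS2 points of DDX60 lie on either side of its controls. OAS2, OASL and IFI44 are in the table through shYEATS2 replicate 2 alone.

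The promoters of the members, taken from RefSeq (GRCh38.p14, 250 bases before to 50 after the start), were available for 46 of the 53. The core of the interferon-stimulated response element, searched as GAAA, any 2 bases and GAAA again, was found on either strand in 3 of the 46 (6.52%, against 3.65% of 27305 promoters and 2.61% of those of genes in the table), and these were DDX60, DDX60L and DHX15. DDX60 and DDX60L have 2 copies each within 100 bases of the start. They are shown as genome sequence on the minus strand, with the motif in capitals, because they are what these neighbouring genes share.
DDX60 chr4:168318821-168318850: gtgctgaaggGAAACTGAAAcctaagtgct
DDX60 chr4:168318786-168318815: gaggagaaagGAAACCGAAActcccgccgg
DDX60L chr4:168480553-168480582: gaaaactgcgGAAATCGAAAaggcctcgcg
DDX60L chr4:168480523-168480552: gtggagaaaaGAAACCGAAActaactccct
The ETS letters CCGGAAG were found in 20 of the 46 members on either strand (43.5%), against 10.7% of all promoters and 20.2% of the promoters of genes in the table. Among the 7 called members they occurred in DDX39B and DDX46. CCAAT occurred in 43.5% of the members, 35.7% of all promoters and 37.1% of those of genes in the table, with 3 copies in DDX39A. CACGTG occurred in 17.4, 7.43 and 10.5% of these. The 3 E2F forms searched (TTTCCCGC, TTTGGCGC and TTTCGCGC) occurred in 2, 0 and 1 members (4.35, 0 and 2.17%), against 2.7, 1.19 and 0.991% of the promoters of genes in the table. The NRF1 motif, searched as GCGCA followed directly by its reverse complement, occurred in 3 of the 46 (6.52%, against 1.36% of all promoters and 2.48% of those of genes in the table). These were DDX10, DDX11 and DDX11-AS1, and the last 2 share 1 site between their starts. A match in a promoter is a description of letters and not of a bound site.

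The ratio of related helicases was compared within each library, which needs no scaling between libraries, and it is given for 7 pairs. The log2 ratio of DDX39A to DDX39B reads was 1.16 and 1.10 in the shNT and 0.93 and 0.94 in the shYEATS2 libraries. The ratio of DDX21 to DDX50 was 3.36 and 3.03 in the shNT and 2.60 and 2.05 in the shYEATS2 libraries. DHX9 over DHX36 stood at 1.93 and 1.84 against 1.49 and 1.35. In the opposite direction, DDX5 over DDX17 was 1.08 and 1.09 in the shNT and 1.21 and 1.29 in the shYEATS2 libraries. The pairs that share sequence or have low counts followed, with DDX19A over DDX19B at 2.63 and 2.52 against 2.37 and 2.14, DDX11 over DDX12P at 2.29 and 2.05 against 2.74 and 3.12, and DDX60 over DDX60L at 1.20 and 0.80 against -0.04 and 0.24. The groups did not overlap in any of the 7 pairs, nor did they in 78.9% of all pairs of genes in the table, so that this is the usual outcome. No test was made because an exact permutation test of 2 against 2 libraries cannot go below p = 0.333.

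**Figure D5:**
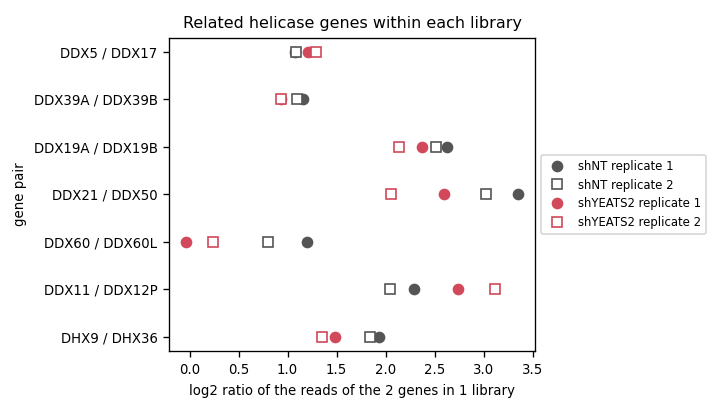
Log2 ratio of the read counts of 2 related helicase genes (x axis) in each of the 4 libraries for 7 gene pairs. The shYEATS2 points lie left of the shNT points in 5 pairs and right of them in DDX5 over DDX17 and DDX11 over DDX12P.

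Levels per length were compared for the 52 members with an annotated transcript, as scaled CPM per kilobase of the canonical transcript in the shNT libraries. DDX5 stood highest at 208, followed by DDX39A (135), DDX3X, DDX21 (116), DHX9 (110.0) and DHX15 (107), and DDX60L lowest at 0.461. On the same scale in the shYEATS2 libraries DDX39A was at 76.8, below DDX3X at 132 and DHX9 at 84.1. Of the members named here DDX39A and DHX15 were called lower and the rest were not called, while 12.5% of all genes were called lower. How many members to name in this order was not set beforehand.

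Genes outside the set that work with these helicases were taken from a list of 32 cofactors, all of which are in the table. Of these, 4 were lower and 3 higher, 12.5 and 9.38%, near the shares of all genes. UTP14A, the partner that activates DHX37 in the small ribosomal subunit processome, fell most, from scaled counts of 2365 and 1973 to 386 and 274 (log2 fold change -2.72, SE 0.186, FDR 0.000793). SARNP (CIP29), which joins DDX39 proteins in TREX, rose from 115 and 124 to 206 and 264 (0.98, FDR 0.00823), a call that was lost in 3 of the 4 fits with a library left out. CTIF, a factor of translation on newly exported mRNA, rose from 1237 and 1297 to 2215 and 2384 (0.86, FDR 0.00141). The other calls, named after their values were seen, were the TREX members ALYREF (-0.83, FDR 0.0016) and THOC1 (-0.68, FDR 0.00376) and GEMIN4 (-0.61, FDR 0.00571), which were lower, and GPATCH8 (0.68, FDR 0.00474), which was higher.

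RNA helicases with other names were compared as well. Of 19 on that list 18 are in the table, of which 2 were lower and 3 higher (11.1 and 16.7%), with a median of 0.05 against -0.14 for the DDX and DHX members. ZNFX1, an interferon-induced helicase that senses double-stranded RNA, rose from 2409 and 1853 to 6196 and 8020 (scaled counts; log2 fold change 1.74, SE 0.173, FDR 0.00116). EIF4A3, the DEAD-box core of the exon junction complex, fell from 5667 and 4845 to 2969 and 2161 (-1.04, SE 0.166, FDR 0.00377). YTHDC2, a reader of methylated RNA, fell from 1873 and 1787 to 1063 and 909 (-0.89, SE 0.114, FDR 0.00188). These 3 calls held with each library left out. MOV10 (0.61, FDR 0.00619) and IGHMBP2 (0.50, FDR 0.00911), named after their values were seen, were the other rises. Both calls were lost when shYEATS2 replicate 2 or either shNT library was left out, in fits that also called fewer of all genes higher.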

How the data were processed

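RNA-seq libraries of H1299 cells (2 shNT, 2 shYEATS2) were grouped by their labels. The authors deposited raw read counts per gene, made with HTSeq 0.6.1p1 per the labels after mapping to hg19. The paper's methods name the RNA-Seq unified mapper and the submitters' processing notes list TopHat2 2.0.10 and Bowtie2 2.1.0. The gene annotation, the strand setting and the reason why the table starts at 101 reads are not given in the sources used here. The deposited log2 fold changes, p-values and FDR values are the authors' own comparison, and these 3 columns were not used. The ChIP-seq libraries were not analysed here.

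All 12676 genes had at least 10 reads in 2 libraries and were tested with edgeR 4.0.16 (R 4.3.3; quasi-likelihood test, TMM, Benjamini-Hochberg, FDR under 0.01). SE is the log2 fold change over the square root of F. Alternatives were exactTest, DESeq2 1.42.0, limma-trend (limma 3.58.1, pseudocount 1), other scalings, low-count filters, a replicate block, an FDR of 0.05 and each library left out. ExactTest with total counts and the coding members alone were added after seeing the data. The methods were tested on simulated counts of independent libraries with the same dispersion for every gene, a simpler setting than these data. With 2 libraries per group the spread is estimated from few samples, with a median SE of 0.109 over the members.

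Positions come from GENCODE on GRCh37, which held 12465 of the 12676 identifiers and 52 of 53 members (not DDX52). Overlap of sequence was counted as shared words of 50 bases between annotated transcripts. The members and lists were chosen with earlier results of these data known. Named one by one are YEATS2, the called members, the largest and smallest changes of each role, both genes of each pair and the 3 largest changes of the cofactor and other helicase lists, and others are marked as chosen after their values were seen. The result of 1 marker gene is not reported here.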

Additional observations from a re-analysis of the deposited data

How the results depend on the processing

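With 2 libraries per group, the number of helicase members called depended on the test. ExactTest called 13 lower and 2 higher (24.5 and 3.77%, against 19.7 and 20.5% of all genes). DESeq2 called 12 and 2 (22.6 and 3.77%, against 17.3 and 17% of all genes). An FDR of 0.05 gave 14 and 3 (26.4 and 5.66%, against 23.8 and 24.4% of all genes). Total counts gave 3 lower (5.66%, against 9.2% of all genes) with a median of -0.0215. ExactTest with total counts gave 8 lower and 3 higher (15.1 and 5.66%, against 14 and 27.3% of all genes) with a median of -0.0216. Leaving out 1 library gave 2 to 10 lower, 0 to 2 higher and medians from -0.2238 to -0.0926. In the list of 32 cofactors an FDR of 0.05 gave 7 lower, against 23.8% of all genes. ExactTest with total counts gave 5 of the 32 higher, against 27.3% of all genes. In the list of other RNA helicases the leave-one-out fits gave 1 to 4 higher and an FDR of 0.05 and exactTest with total counts gave 6 higher. The 7 called members kept their direction under each alternative run.

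The log2 fold change of 14 members changed sign under at least 1 alternative, 10 of them with total counts and 10 with a library left out, and none of these was called where it had changed sign. Of those named in the text, DHX38 was 0.11 with total counts under either test, 0.0115 with upper-quartile scaling, 0.0044 with a mean count of at least 100 and between -0.1035 and 0.0905 with a library left out. DDX31 was 0.11 with total counts under either test, 0.0073 with upper-quartile scaling and between -0.1295 and 0.1114 with a library left out. DDX11L2 was 0.0227 with total counts and 0.023 with exactTest and total counts. With a library left out, DDX3X lay between -0.037 and 0.0729 and DDX60 between -0.2672 and 0.7561.

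The replicate numbers are not labelled as pairing the libraries. Replicate 1 minus replicate 2 correlated between the groups with r = 0.399 over all genes and 0.451 over the members. A replicate block called 13 members lower and 2 higher (24.5 and 3.77%), 7 cofactors lower and 5 other RNA helicases higher. Over the table it called 2715 genes lower and 2742 higher (21.4 and 21.6%). Over all genes 1581 were lower and 1630 higher in the main comparison, 2497 and 2596 with exactTest, 2190 and 2159 with DESeq2, and 1166 and 2363 with total counts, where the median of all genes was 0.12. Genes with fewer than 101 reads in every library are not covered.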
